A study of Homo sapiens with 32 samples.

Results

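DDX5 and DDX17 are paralogous genes that encode DEAD-box RNA helicases, and their transcripts are described here across iCLIP libraries of mRNA export factors. These 2 genes, of 64449 annotated outside the mitochondrial chromosome, were chosen by a measured value: a bin of 10 kb over the 3′ end of DDX17 (chr22:38870001-38880000, minus strand, hg19) held many Chtop tags. Chtop values of DDX17 are therefore a description and carry no test. In iCLIP, protein and RNA are linked by UV light in the cell, the protein is immunoprecipitated with its RNA, and reverse transcription stops at the linked base and so marks the contact. A tag is 1 such molecule after removal of PCR duplicates by random barcodes.

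The data comprised 12 libraries from 32 lane runs, 3 per group. The proteins were Alyref, Chtop or Nxf1 with a FLAG tag, or the tag alone (Control), and all were precipitated with an anti-FLAG antibody. The cells, FlipIn HEK293T in one label and FlpIn-293 in another, are a human embryonic kidney line with 1 recombination site for a transgene, so that each factor was expressed from an inducible copy beside the endogenous gene. The Alyref and Chtop lines were induced over 48 h with tetracycline at 10 ng/mL and the Nxf1 line at 5 ng/mL. Whether the Control line was induced, and at which dose, was not given in the sources used here. Replicate 2 of every group was run on HiSeq lanes 5 and 6 and replicates 1 and 3 on lanes 7 and 8, and replicates 1 and 2 also had a MiSeq run. Nothing in the labels states that replicates came from separate cultures, so p-values measure the spread between these libraries.

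DDX5 and DDX17 act in splicing, in microRNA processing with the Microprocessor complex and as coregulators of transcription. Alyref and Chtop are subunits of TREX, which couples transcription and processing to export of the mRNA. Nxf1 is the receptor that carries the mRNA through the nuclear pore. Many genes for RNA-binding proteins make isoforms that retain an intron, and such RNAs are often kept in the nucleus or degraded.

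Alyref and Chtop libraries held 47052 to 631704 tags, Nxf1 libraries 8134 to 179346 and Control libraries 7017 to 46628, and replicate 1 was the shallowest in each group. With 3 tags as the limit that a count of 0 allows, a gene with no tag could have had up to 4.75 CPM (tags normalised to the total of the library) in Alyref 2 but up to 428 in Control 1. Of the tagged genes themselves, CHTOP had its highest mean level with Chtop (223 CPM) and NXF1 with Nxf1 (209.5 CPM), whereas ALYREF had 21.4 CPM with Alyref and 35.4 with Nxf1. LIN28B had tags in 12 libraries and VIM in 10, as genes that HEK293T cells express, but NEFM had tags in 1. The hepatocyte gene ALB had 1 tag in all, the leukocyte gene PTPRC 3, the muscle gene ACTA1 6 and the erythroid gene HBG1 0.

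DDX5 (ENSG00000108654) lies on chr17:62494372-62504317, minus strand. Its canonical transcript has 13 exons and 12 introns, with 170 nt of 5′ UTR, 1845 nt of coding sequence, 1669 nt of 3′ UTR and 4352 nt of introns. DDX17 (ENSG00000100201) lies on chr22:38879443-38903665, minus strand. Its canonical transcript also has 13 exons and 12 introns, with 74 nt of 5′ UTR, 2190 nt of coding sequence, 2497 nt of 3′ UTR and 18113 nt of introns. Exons 4 to 11 have the same lengths in both genes, with 68.7% to 80.7% identical bases per exon. The longest run of identical bases in these exons was 26 nt, in exon 8, and 7 to 17 nt in the others. Only uniquely mapped reads were kept, so reads within the longest shared run are the ones most open to loss between the paralogs.

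The windows below hold the 3 crosslinked bases with most tags in each gene body, among bases with tags in at least 3 libraries. They also hold the 3 with most tags in the bin that chose DDX17. Sites in intron 11 and at the end of intron 4 are shown for both genes, and the other kinds for DDX17 only. Each window below has 21 bases from the GRCh37 genome on the strand of the gene, 5′ to 3′, and the capital marks the crosslinked base at position 11.
DDX5 intron 11, chr17:62498016-62498036: tttttctaagTtttttttcac
DDX5 intron 11, chr17:62497380-62497400: aaaaacaactTttgggggaca
DDX17 intron 11, chr22:38885627-38885647: acagctaattTttttttttta
DDX5 end of intron 4, chr17:62499977-62499997: accctaaataGtatttgcttc
DDX17 end of intron 4, chr22:38894146-38894166: cccctccacaGtatctcctgc
DDX17 exon 1, chr22:38902199-38902219: gattctctgtGttttgctccc
DDX17 3′ UTR, chr22:38879609-38879629: attgatgttcTtgctggtctc
DDX17 3′ UTR, chr22:38879641-38879661: ttagtggcttTtgcttgggat
DDX17 3′ UTR, chr22:38879855-38879875: tagcagagttTaactcttctg

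The first 3 windows lie in intron 11, the intron of each gene that carried most intronic tags. The first base of DDX5 intron 11 had 8 tags in 5 libraries and the second had 6 tags in 5. The base of DDX17 intron 11 had 8 tags in 6 libraries, of which 1 was a Control tag. The next pair is the same place in both genes, the last base of intron 4, with 8 tags in DDX5 (6 Alyref, 2 Chtop) and 7 in DDX17 (6 Alyref, 1 Chtop). The base of DDX17 exon 1 had 8 tags in 7 libraries, of which 2 were Control tags. The 3 windows of the DDX17 3′ UTR had 6, 5 and 5 tags, with 5, 3 and 2 of them from Chtop and none from the Control. They were picked within the bin that chose the gene for its Chtop tags, so these counts are a description of that choice.

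No single base dominated either transcript. In DDX5, 913 bases had a tag, 26.8% of them in at least 2 libraries, and in DDX17 2218 bases, 31.1% of them in at least 2. The most tags at a base in 1 library was 4 in each gene. Uracil stood at the crosslinked base of 54.6% of Alyref tags (95% Wilson interval 50.9% to 58.4%) and 63.4% of Chtop tags (59.5% to 67.2%) in DDX5, where uracil made up 29.3% of the gene body. In DDX17, it stood at 53.3% of Alyref tags (50.8% to 55.8%), 55.3% of Chtop tags (52.9% to 57.7%), 57.9% of Nxf1 tags (50.8% to 64.7%) and 53.6% of Control tags (40.7% to 66.0%), against 30.9% of the gene body. The Control thus had a share like those of the factors in DDX17. These intervals, like all intervals here, cover counting error only.

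DDX17 was among the genes with most tags in each group, and DDX5 had fewer. By mean CPM of tags that fall in no other gene, DDX17 ranked 5 of 20163 protein-coding genes with Alyref, 5 with Chtop, 11 with Nxf1 and 30 with the Control. DDX5 ranked 59, 54, 416 and 199 in that order. These ranks are by tags and not per length. No RNA level was measured in these libraries, so that more RNA and more crosslinking per RNA cannot be told apart.

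In single libraries, DDX5 had 50, 335 and 292 tags in the gene body with Alyref for replicates 1, 2 and 3, 30, 258 and 300 with Chtop, 3, 23 and 21 with Nxf1, and 5, 5 and 4 with the Control. As CPM, these were 615, 530.3 and 484 for Alyref and 638, 479 and 698 for Chtop. Nxf1 had 369, 193 and 117 CPM, and the Control 713, 107 and 108. The Alyref and Chtop libraries thus overlapped each other and lay above all 3 Nxf1 libraries, whereas Control 1, with its 5 tags, lay above every other library. Alyref had a mean of 543 ± 66.4 CPM and Chtop of 605 ± 113 (SD, n = 3 each), against 226 ± 129 with Nxf1 and 309 ± 349 in the Control (SD, n = 3 each).

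DDX17 had 125, 754 and 618 tags with Alyref, 77, 759 and 787 with Chtop, 13, 97 and 80 with Nxf1, and 5, 44 and 7 with the Control. The Alyref libraries thus had 1537, 1194 and 1024 CPM and the Chtop libraries 1636, 1409 and 1832. Nxf1 gave 1598, 814 and 446 CPM, and the Control 713, 944 and 189. All Alyref and Chtop libraries lay above all Control libraries, and Nxf1 1, with 13 tags, lay among those of Alyref and Chtop. Alyref had a mean of 1252 ± 261 CPM and Chtop of 1626 ± 212 (SD, n = 3 each), against 953 ± 588 with Nxf1 and 615 ± 386 in the Control (SD, n = 3 each).

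**Figure D1:**
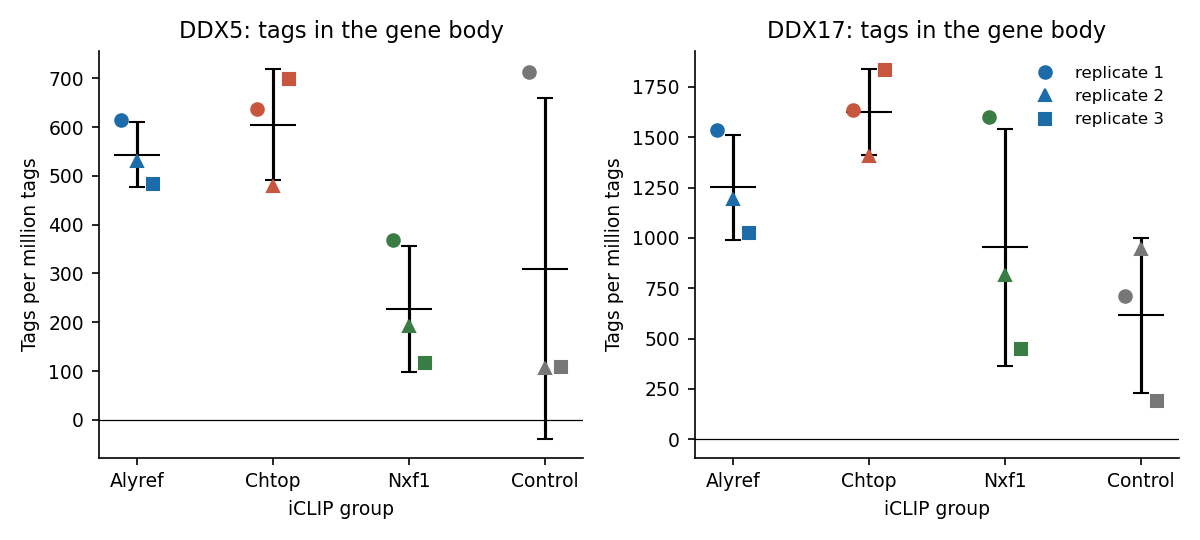
Tags in the bodies of DDX5 (left) and DDX17 (right), in CPM, for each iCLIP group. Points are libraries with the shape giving the replicate, horizontal bars are means and error bars ± 1 SD of 3 libraries. In DDX5 the Alyref and Chtop libraries lie above the Nxf1 libraries, the SD of the Control reaches below 0 because 1 shallow library holds 5 tags, and the y axes of the panels differ.

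Per kb of exon, DDX17 had more tags than DDX5 in all 12 libraries. The ratio of DDX17 to DDX5 was 1.85, 1.78 and 1.50 in the Alyref libraries, 2.399, 2.25 and 2.10 in the Chtop libraries and 3.87, 3.45 and 2.38 in the Nxf1 libraries. In the Control it was 1.03, 9.67 and 1.16, from 2 or 3 DDX5 tags in each. The 3 factors did not overlap except that Nxf1 3 lay just under Chtop 1. The Nxf1 ratios rest on 2, 11 and 13 exonic DDX5 tags, so their place above the other factors hangs on few tags. No other pair of genes was set beside these ratios. The ratios of Chtop rest on the DDX17 values that chose the gene and were not tested.

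The first question was whether each factor had more tags on these transcripts than the Control or another factor. With edgeR's quasi-likelihood test across 3240 genes, DDX5 had 3.51-fold more tags with Chtop than with the Control (log2 fold change 1.81, SE 0.486, adjusted p = 0.0142), in a comparison that called 14.6% of all genes tested. It was not called without Control 2 (log2 fold change 1.56, adjusted p = 0.0955 by edgeR) or without Control 3 (1.84, adjusted p = 0.0645), and was called without Control 1 (2.36, adjusted p = 0.00458). For Alyref against the Control the log2 fold change of DDX5 was 1.51 (SE 0.488, adjusted p = 0.132 by edgeR), where 0.123% of genes were called, and it was called without Control 1 (log2 fold change 2.07, adjusted p = 0.0488) in which 5 tags gave the highest level of any library. For Nxf1 against the Control it was -0.02 (SE 0.575, adjusted p = 0.995 by edgeR), where 0.0309% of genes were called. All genes called for Alyref or Nxf1 against the Control in this fit were lower with the factor, so no gene was called as higher. With the replicate number as a block, 69 genes were called for Alyref against the Control in place of 4 and 3 for Nxf1 against the Control in place of 1, and DDX5 was called in neither.

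Nxf1 had fewer tags on DDX5 than either TREX subunit. Chtop had 3.56-fold more tags than Nxf1 (log2 fold change 1.83, SE 0.401, adjusted p = 0.0015 by edgeR), in a comparison that called 25.8% of genes. Alyref had 2.89-fold more than Nxf1 (log2 fold change 1.53, SE 0.398, adjusted p = 0.0229 by edgeR), in one that called 4.75%. The latter call was lost without Alyref 2, Alyref 3, Nxf1 2 or Nxf1 3, with adjusted p of 0.0969, 0.0627, 0.0978 and 0.275. Alyref and Chtop differed on DDX5 by a log2 fold change of -0.30 (SE 0.324, adjusted p = 0.544 by edgeR), where 15.7% of genes were called.

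No tested comparison of whole DDX17 passed the threshold. The log2 fold change was 1.06 for Alyref against the Control (SE 0.482, adjusted p = 0.282 by edgeR), 0.41 for Nxf1 against the Control (SE 0.505, adjusted p = 0.912) and 0.66 for Alyref against Nxf1 (SE 0.453, adjusted p = 0.435). The Chtop values, given with no test, were 1.55 against the Control, 1.15 against Nxf1 and -0.49 for Alyref against Chtop. Comparisons with the Control share its 3 libraries and are not independent of each other.

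The second question was where along the transcripts the factors were crosslinked. In DDX5, exons up to the stop codon held 65.4% ± 4.29 (SD, n = 3) of the gene-body tags with Alyref, 55.3% ± 4.57 (SD, n = 3) with Chtop and 52.7% ± 13.0 (SD, n = 2) with Nxf1. The 3′ UTR held 6%, 8.96% and 9.25% in the Alyref libraries and 16.7%, 20.2% and 19.7% in the Chtop libraries. In the pair of Nxf1 libraries with at least 10 DDX5 tags it held 4.35% and 0%. Every Chtop library thus lay above every Alyref and Nxf1 library, by 13.1 percentage points between the means (exact two-sided permutation test, p = 0.0357, the smallest that this design allows, adjusted p = 0.2 over 12 tests).

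Introns held 25.8% ± 2.52 (SD, n = 3) of DDX5 tags with Alyref, 25.2% ± 7.14 (SD, n = 3) with Chtop and 45.1% ± 9.96 (SD, n = 2) with Nxf1. The 2 Nxf1 libraries lay above the other 6 for introns, by 19.7 points, and below them for the 3′ UTR, by 11.3 points (exact two-sided permutation test, p = 0.0714 each, the smallest possible, adjusted p = 0.2 each). They rest on 23 and 21 tags. With the exons of all isoforms merged, the difference in introns was 0 points for each factor. The tags of all DDX5 introns, and not only of intron 11, then count as exonic, so no intronic share is left to compare. None of the 12 share tests passed after adjustment. The Control had 4 or 5 DDX5 tags a library, too few for a share.

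In DDX17, the 3′ UTR held 26.4%, 22.9% and 20.2% of the tags in the Alyref libraries and 38.5%, 32.0% and 37.5% in the Nxf1 libraries, with no overlap. Exons up to the stop codon held 46.4%, 49.2% and 47.7% with Alyref and 38.5%, 18.6% and 12.5% with Nxf1, again with no overlap. The means differed by 12.8 points for the 3′ UTR and by 24.6 points for the exons (exact two-sided permutation test, p = 0.1 each, the smallest that 3 against 3 libraries allow, adjusted p = 0.2 each). Introns held 29.0% ± 2.66 (SD, n = 3) with Alyref and 40.9% ± 15.4 (SD, n = 3) with Nxf1 (exact permutation p = 0.4), a difference of -11.9 points that was -6.21 with isoforms merged. The Chtop libraries, given with no test, had 39.0%, 32.7% and 33.7% of DDX17 tags in the 3′ UTR and 18.2% to 22.3% in introns. Control 2, with 44 tags, had 34.1% in the 3′ UTR, 22.7% in the exons and 43.2% in introns. Its 3′ UTR share lay among those of the Nxf1 libraries and also among those of the Chtop libraries. For exons and introns it was nearer to Nxf1 2 and Nxf1 3 than to Nxf1 1, which had 38.5% and 23.1% from 13 tags.

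**Figure D2:**
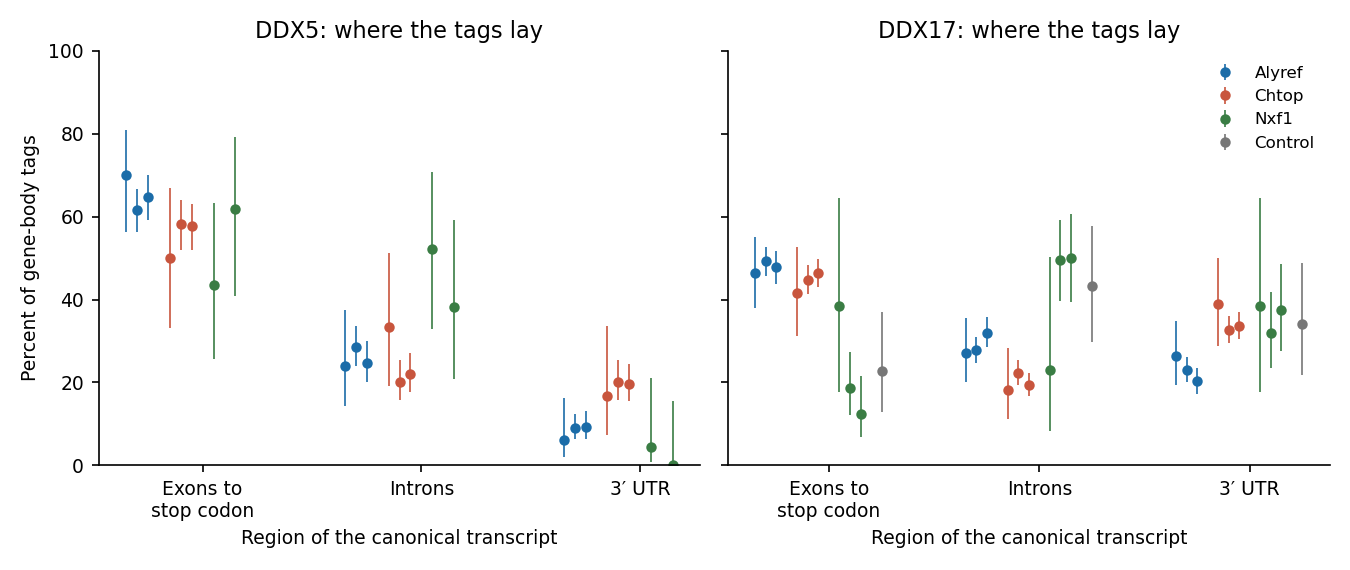
Percent of gene-body tags of DDX5 (left) and DDX17 (right) in exons up to the stop codon, introns and the 3′ UTR. Each point is a library with at least 10 tags in the gene and each line its 95% Wilson interval. The Chtop libraries have 16.7% to 20.2% of DDX5 tags in the 3′ UTR against 0% to 9.25% with Alyref and Nxf1, and Nxf1 has the highest 2 intron shares in DDX5.

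Set beside other genes with at least 50 tags, DDX5 had a high share in exons. With Alyref, 66.0% of its tags in the canonical transcript lay in exons up to the stop codon, where the median of 5420 genes was 36.0%. With Chtop, 59.6% did so, against a median of 33.3% over 4174 genes. DDX17 had 48.4% and 45.6%. In the 3′ UTR lay 9.22% of Alyref tags of DDX5 and 22.1% of those of DDX17, against a median of 11.9%, and 20.5% and 33.6% of Chtop tags, against a median of 31.5%. With Nxf1, 34.7% of DDX17 tags lay in the 3′ UTR, against a median of 6.35% over 553 genes, and 47.9% in introns, against a median of 76.9%.

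Tags were also fitted by gene part, with 2108 exonic, intronic, 3′ UTR and downstream parts of all genes in 1 edgeR fit. On the exons of DDX5 up to the stop codon, Alyref had 3.84-fold more tags than Nxf1 (log2 fold change 1.94, SE 0.608, adjusted p = 0.0162) and Chtop 4.32-fold more (2.11, SE 0.610, adjusted p = 0.00289). These comparisons called 15.1% and 46.7% of parts. On the exons of DDX17, Alyref had 4.25-fold more tags than Nxf1 (2.09, SE 0.688, adjusted p = 0.0227). The 3′ UTR of DDX17 gave 0.22 (SE 0.597, adjusted p = 0.869 by edgeR) and its introns 0.18 (SE 0.557, adjusted p = 0.883). Exons thus passed the test between Alyref and Nxf1 in both genes, and no test was made of the difference between exons and the other parts.

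Both exonic calls for Alyref against Nxf1 depended on single libraries and on the annotation. With the exons of all isoforms merged, neither was called (DDX5 1.56, adjusted p = 0.0700 and DDX17 1.24, adjusted p = 0.232 by edgeR). In DDX5 the merged exons also hold the tags of its introns. In DDX5 the call was lost without Alyref 1, Nxf1 2 or Nxf1 3 (adjusted p of 0.215, 0.108 and 0.244). In DDX17 it was lost without any 1 Alyref library (0.175, 0.087 and 0.0582) and without Nxf1 2 or Nxf1 3 (0.123 and 0.386). The introns of DDX5 gave a log2 fold change of 0.80 for Alyref against Nxf1 (SE 0.561, adjusted p = 0.401 by edgeR) and 1.14 for Chtop against Nxf1 (SE 0.570, adjusted p = 0.0830). The latter was called with RLE scaling (1.73, adjusted p = 0.0157 by edgeR), with DESeq2 (1.76, adjusted p = 0.0431) and without Alyref 2, Chtop 2, Nxf1 2 or Control 2 (adjusted p of 0.0305, 0.00894, 0.0206 and 0.0398). Between Alyref and Chtop, where 15.4% of parts were called, the exons of DDX5 gave -0.17 (SE 0.494, adjusted p = 0.813 by edgeR) and its introns -0.34 (SE 0.449, adjusted p = 0.592). The 3′ UTR of DDX5 had too few tags to enter this fit.

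Exonic tags were sparse in exons 9 to 12 of both genes. In DDX5, exons 1 to 3 had 29.4 Alyref tags per 100 nt over the 3 libraries, exons 4 to 8 had 30.8 and exons 9 to 12 had 9.39. In DDX17 these were 42.5, 47.3 and 14.0. The Chtop tags gave 21.4, 16.3 and 5.68 in DDX5 and 39.9, 37.3 and 13.0 in DDX17. Of these 3 blocks, exons 9 to 12 thus had the fewest tags per length with both TREX subunits in both genes. In the stretch of exon 13 before the stop codon, Alyref had 9.65 tags per 100 nt in DDX5 and 15.4 in DDX17, near its values in exons 9 to 12, whereas Chtop had 24.8 and 35.6, near or above its values in exons 1 to 8. Exons 10 and 11, just before intron 11, had 4 Alyref tags each in DDX5 and 5 each in DDX17. With Nxf1, exons 1 to 12 of DDX5 had 19 tags in all, and those of DDX17 24, too few for a profile.

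The last exon, which holds the 3′ UTR, took a larger share of exonic tags with Chtop than with Alyref in both genes, given here as a description. Exon 13 of DDX5 had 99 tags or 20.2% of the exonic tags with Alyref and 216 tags or 47.6% with Chtop, and 7 tags or 26.9% with Nxf1. Exon 13 of DDX17 had 38.8% of exonic tags with Alyref, 56.5% with Chtop, 75.8% with Nxf1 and 59.4% (19 tags) in the Control, whose share in DDX5 was 28.6% from 2 tags. Between -75 and -24 nt of the exon-exon junctions, counted on the spliced transcript, lay 41.7% of Alyref tags and 34.9% of Chtop tags upstream of the last exon of DDX5, where the window covers 36.4% of the bases. In DDX17 these were 38.2% and 34.7%, against 33.4% of the bases. Nxf1 had 12 of 19 such tags (63.2%) in the window in DDX5 and 8 of 24 (33.3%) in DDX17.

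**Figure D3:**
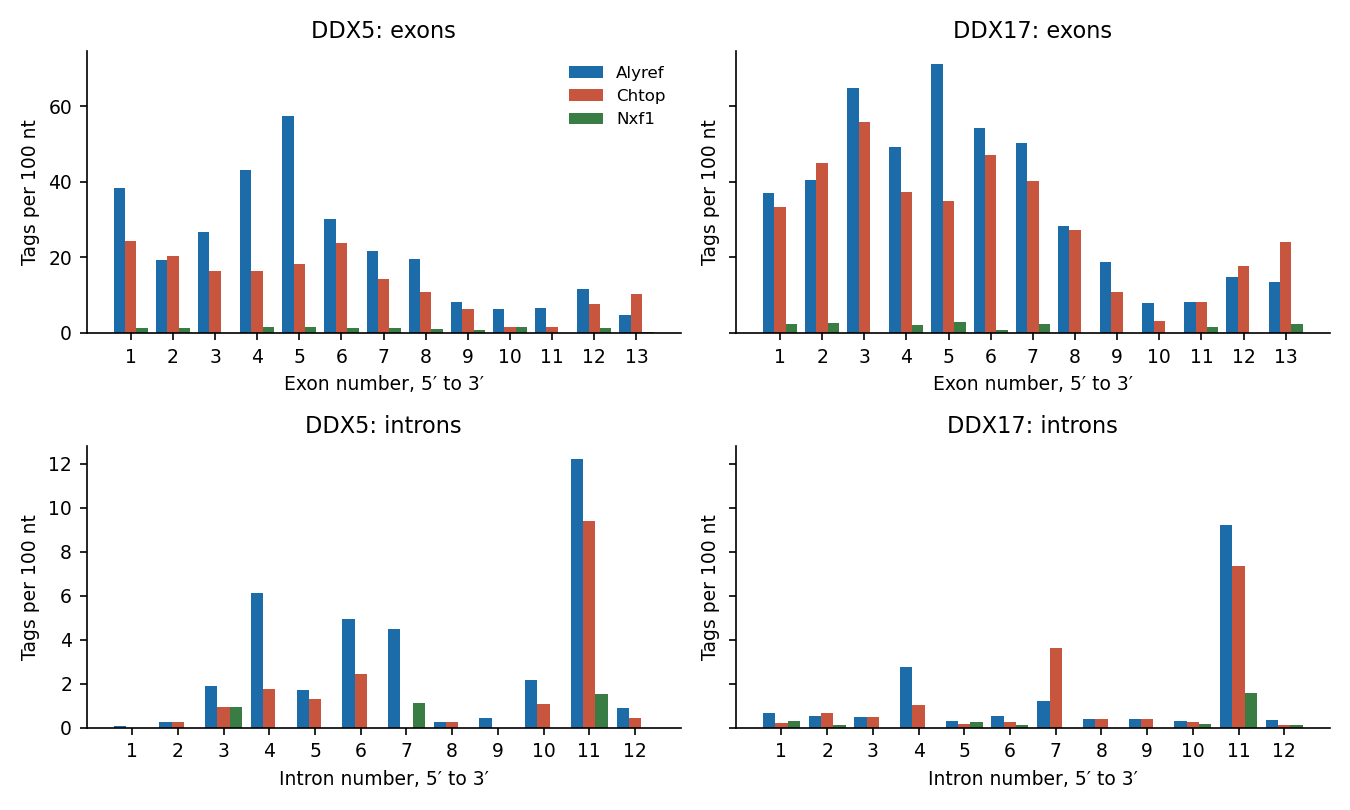
Tags per 100 nt, summed over 3 libraries of a factor, in each exon (top) and each intron (bottom) of the canonical transcripts of DDX5 (left) and DDX17 (right). Heights compare within a factor, since depth differs between factors. Exons 9 to 12 are low and intron 11 stands above the other introns in both genes.

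Intron 11 carried most of the intronic tags of both genes. In DDX5 it spans chr17:62496892-62498127, 1236 nt or 28.4% of the intron length, and held 11, 82 and 58 Alyref tags, 10, 48 and 58 Chtop tags and 1, 10 and 8 Nxf1 tags. These were 83.9%, 90.6% and 90.5% of the intronic tags of the 3 factors. In DDX17 it spans chr22:38884121-38888060, 3940 nt or 21.8% of the intron length, and held 31, 181 and 152 Alyref tags, 12, 140 and 138 Chtop tags and 3, 32 and 28 Nxf1 tags. These were 82.5%, 86.3% and 69.2% of the intronic tags. The Control had 1, 0 and 2 tags in intron 11 of DDX5 and 0, 12 and 4 in that of DDX17. These were 50% of its intronic tags in DDX5, from 3 tags, and 66.7% in DDX17, from 16 tags. Most intronic DDX17 tags of the Control thus lay in intron 11 too.

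As a share of all gene-body tags, intron 11 of DDX17 held 24.0% to 24.8% in the Alyref libraries, 15.6% to 18.5% in the Chtop libraries and 23.1% to 35.0% in the Nxf1 libraries. The share was nearly the same in all Alyref libraries, and those of Chtop lay below it. Control 2, with 12 of its 44 DDX17 tags there, had 27.3%, above the Alyref and Chtop libraries and within the range of Nxf1. In DDX5 the ranges were 19.9% to 24.5% with Alyref and 18.6% to 33.3% with Chtop, which overlap, and the pair of Nxf1 libraries with at least 10 tags had 38.1% and 43.5%, above both. As a density, DDX5 intron 11 had 12.2 Alyref tags per 100 nt and DDX17 intron 11 had 9.24, where the median of 67283 introns of at least 500 nt in genes of at least 50 tags was 0.0513. Of those introns, 2 were denser than that of DDX5 and 5 denser than that of DDX17. With Chtop, the densities were 9.39 and 7.36 against a median of 0.0180 over 53777 introns, of which 3 and 7 were denser. With Nxf1, DDX17 intron 11 had 1.60 tags per 100 nt, where the median of 11498 introns was 0 and 7 were denser. None of these densities is scaled to the tags of the host gene, and both genes ranked high by tags with Alyref and Chtop.

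The annotation lists isoforms in which intron 11 is exon. In DDX5, 8 annotated transcripts have 1 exon over the whole of it, and in DDX17 1 transcript has. Exons of such isoforms cover 100% of the bases of intron 11 in each gene. In DDX5, exons of annotated isoforms also take in the tags of the other introns. Such coverage alone therefore does not set intron 11 apart in that gene. The tags spread along it. Cut into 10 equal stretches, in DDX5 each held 5 to 28 Alyref tags and 3 to 22 Chtop tags, and in DDX17 21 to 56 and 18 to 40. None lay on the last base of intron 11. DDX5 intron 11 also hosts the microRNA genes MIR5047, with 19 Alyref, 13 Chtop and 1 Nxf1 tags, and MIR3064, with 2 Chtop and 2 Nxf1 tags. Such tags were left out of the tests by gene.

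**Figure D4:**
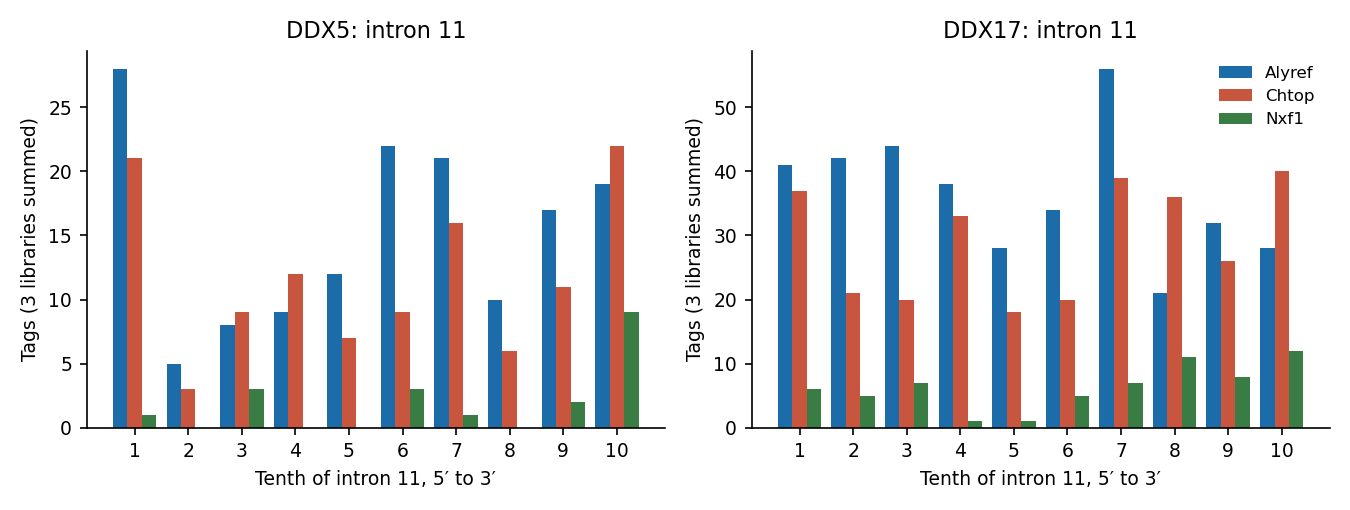
Tags in 10 equal stretches of intron 11 of DDX5 (left) and DDX17 (right), 5′ to 3′, summed over the 3 libraries of each factor. Tags fall in every stretch with Alyref and with Chtop, and the y axes of the panels differ.

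Outside intron 11, part of the intronic tags of Alyref and Chtop lay on the last base of an intron, a larger part in DDX5 than in DDX17. These were 11 of 29 Alyref tags (37.9%) and 7 of 12 Chtop tags (58.3%) in DDX5, and 13 of 77 (16.9%) and 4 of 46 (8.70%) in DDX17. Nxf1 had 0 of 2 in DDX5 and 1 of 28 (3.57%) in DDX17, and the Control 0 of 3 and 0 of 8. The base before a read that begins with an exon is the last base of the intron on the genome, whether the RNA was spliced or not. Such tags therefore do not tell an unspliced from a spliced molecule, and the end of intron 4 shown above is of this kind in both genes.

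Within the 3′ UTR, tags of DDX5 lay near the stop codon, whereas those of DDX17 lay along its whole length. In DDX5 the first 307 nt reach the end of shorter isoforms annotated as nonsense-mediated decay or retained intron. That stretch had 52 of 60 Alyref tags and 98 of 116 Chtop tags, and the remaining 1362 nt had 8 and 18. These were 16.9 and 31.9 tags per 100 nt before that end and 0.587 and 1.32 after it. The mean level in the first 169 nt was 14.4 CPM per 100 nt with Alyref and 43.3 with Chtop, and in the last 250 nt it was 0.432 and 1.74. Nxf1 had 1 tag in the whole 3′ UTR of DDX5, or 2.13% of 47 gene-body tags (95% Wilson interval 0.377% to 11.1%).

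In DDX17 the tags ran on to the annotated end. The first 258 nt reach the end of a shorter isoform annotated as retained intron. That stretch had 29 Alyref, 40 Chtop and 7 Nxf1 tags, and the other 2239 nt had 302, 503 and 59. Per 100 nt, Alyref had 11.2 tags before that end and 13.5 after it, Chtop 15.5 and 22.5, and Nxf1 2.71 and 2.63, so that every factor had tags on both sides. All 7 Nxf1 tags before that end came from Nxf1 3. The mean level with Chtop was 21.6 CPM per 100 nt at the stop codon (2251 to 2497 nt before the end), 4.21 in the next 250 nt and 59.6 in the last 250 nt. With Alyref these were 15.0, 4.22 and 25.5, and with Nxf1 5.27, 0.743 and 24.6. The Control had 29.7 at the stop codon, from 10 tags. The last 500 nt lie within the bin that chose the gene for its Chtop tags, so the level there is a description of that choice. The last 250 nt held 7, 36 and 29 Alyref tags, 9, 60 and 62 Chtop tags and 1, 4 and 5 Nxf1 tags, so the Nxf1 mean rests largely on 1 tag of its shallowest library. The Control had none there, where the limit for 0 tags is 25.7 CPM per 100 nt in its deepest library.

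**Figure D5:**
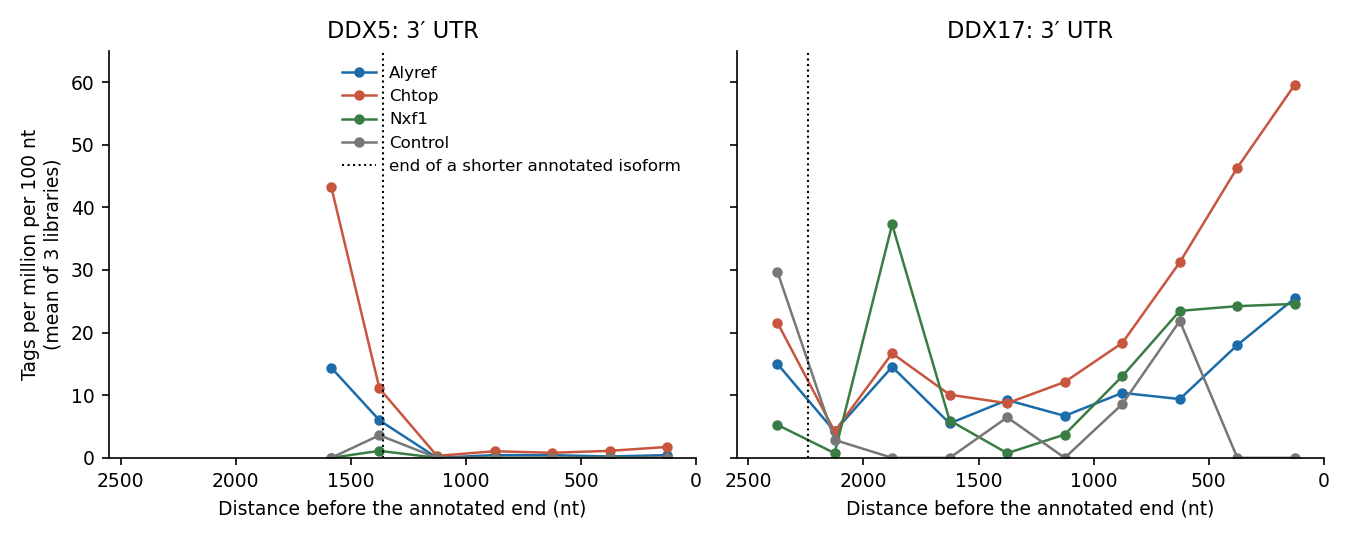
Mean CPM per 100 nt in windows of 250 nt along the 3′ UTR of DDX5 (left) and DDX17 (right), by distance before the annotated end, for 3 libraries a group. In DDX5 Chtop falls from 43.3 at the stop codon to 1.74 at the end, and in DDX17 it is 21.6 at the stop codon and 59.6 at the end, within the bin that chose the gene. In DDX17 the highest points of Nxf1 and of the Control rest on 6 and 10 tags, and the Control point of 21.9 at 501 to 750 nt on 2. Each Nxf1 point in the last 750 nt includes 1 tag of its shallowest library, which weighs heavily in the mean. The dotted line marks where a shorter annotated isoform ends.

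The bin that chose DDX17 reached 558 nt into the gene, and nearly all of its tags lay in that stretch. The bin had 12, 69 and 63 Alyref tags, 14, 120 and 132 Chtop tags, 2, 12 and 8 Nxf1 tags and no Control tag. This was 120 ± 23.7 CPM (SD, n = 3) with Alyref, 276 ± 46.3 (SD, n = 3) with Chtop and 130 ± 104 (SD, n = 3) with Nxf1. Past the annotated end, the 9442 nt of the bin had 9 Alyref, 3 Chtop and 2 Nxf1 tags. In the 250 nt past the end neither gene had a tag in any library. The 5 kb past the end of DDX5 had 1, 10 and 4 Alyref tags, 0, 4 and 12 Chtop tags and 2 Nxf1 tags, and most of that stretch is annotated as POLG2 on the same strand, whose tags cannot be told from those of a DDX5 transcript that runs on. The motif AATAAA, searched on the gene strand in the last 50 nt, began 23 nt from the end in both genes, and 63.4% of 19881 canonical transcripts have it in that window.

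Other DEAD-box helicases and known partners of DDX5 and DDX17 were counted for comparison. Of 31 other DEAD-box helicases, 9 had enough tags for the test by gene. None was called against the Control with any factor, 1 was higher with Alyref than with Chtop, 2 with Alyref than with Nxf1, and 1 with Chtop than with Nxf1, and none was lower. Of 9 genes each, these are to be read against 15.7%, 4.75% and 25.8% of all genes. DDX56, a nucleolar helicase, was the most changed, with a log2 fold change of 1.89 for Alyref against Nxf1 (adjusted p = 0.00621 by edgeR) and 1.29 for Chtop against Nxf1 (adjusted p = 0.0237). EIF4A2, a translation initiation factor, was the other helicase higher with Alyref than with Nxf1 (1.28, adjusted p = 0.0404), and DDX10 was higher with Alyref than with Chtop (1.06, adjusted p = 0.0351). The median over the 9 genes was 0.47 for Alyref against Nxf1 and 0.51 for Chtop against Nxf1, where DDX5 had 1.53 and 1.83 and the medians of all genes were 0.02 and 0.04.

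Of 20 partners, 14 had enough tags. Between Chtop and Nxf1 4 were called, against 25.8% of all genes, between Alyref and Chtop 3 (15.7%), between Alyref and Nxf1 1 (4.75%) and between Chtop and the Control 1 (14.6%). None was called for Alyref or Nxf1 against the Control, where 0.123% and 0.0309% of genes were. HDAC1, a histone deacetylase, was higher with Chtop than with Nxf1 (1.26, adjusted p = 0.0358 by edgeR), as was NONO, a paraspeckle protein (1.098, adjusted p = 0.0303). The RNase of the Microprocessor, DROSHA, was higher with Alyref than with Nxf1 (1.18, adjusted p = 0.0323 by edgeR) and than with Chtop (1.09, adjusted p = 0.00675). XRN2, the nuclear exonuclease of termination, was higher with Alyref than with Chtop (1.42, adjusted p = 0.00212) and lower with Chtop than with Nxf1 (-1.15, adjusted p = 0.0231), and DHX9, an RNA helicase, was higher with Alyref than with Chtop (0.86, adjusted p = 0.0357). The median over the 14 partners was 0.63 for Chtop against the Control, where that of all genes was 0.16 and DDX5 had 1.81.

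Across the 12 libraries, log2 CPM of DDX5 and DDX17 had a Pearson r of 0.742, and other genes were more like each. Of 4145 protein-coding genes with a mean of at least 50 CPM, LDB1 (r = 0.969), PAXBP1 (0.965), TUBGCP6 (0.943), BLTP2 (0.943) and GIGYF1 (0.941) were most like DDX5. Most like DDX17 were DYNC1LI2 (0.963), KIF18B (0.926), SUN1 (0.924), ZNF518A (0.922) and LARS1 (0.917). Genes of 1 library share its depth, and no test was made on these correlations.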

How the data were processed

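Deposited values were counts of tags per crosslinked base for each library. The authors removed phiX reads with Bowtie 1.1.2, extracted barcodes with UMI-tools 0.5.3, trimmed with Reaper, aligned with STAR 2.4.2a to hg19 keeping unique reads, merged lanes and removed duplicates. They took the crosslinked base as the most 5′ deletion or the base before the read. Pooled files were not used. Here, tags were assigned by strand with GENCODE 44 on GRCh37, and tags in more than 1 gene (5.97% to 8.32% of a library) were left out of the tests by gene. Tags in 1 gene were 59.0% to 83.4%. Runs counted as 1 library, grouped by label.

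Tags per gene and per gene part were tested with edgeR 4.0.16 in R 4.3.3 (TMM, filterByExpr, quasi-likelihood, all libraries in 1 fit) with Benjamini-Hochberg adjustment, called at adjusted p under 0.05. Replicate numbers share lanes across groups, so the fit with the number as a block was the paired alternative. Libraries of 1 number correlated at -0.18 to 0.25 in their deviations from the group means and others at -0.28 to 0.24, and 9 of 12 correlated best with their own number. Region shares used exact permutation tests over libraries with at least 10 tags. Scripts were tested on simulated data. Members, lists and tests were chosen with earlier results of these data known. Genes named outside the members were those called with the largest change in each list and contrast and the 5 most correlated. EIF4A2, HDAC1, NONO, DHX9 and the DROSHA value against Chtop were added after their values were seen. A result that names a withheld item is not reported here. Alternatives were DESeq2 1.42.0, RLE, no filter, other counting, a replicate block and left-out libraries.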

Additional observations from a re-analysis of the deposited data

How the results depend on the processing

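Values here are log2 fold changes unless given as points, and the ranges are over fits that left out 1 library in turn or replicate 1 of every group. The cause of these changes was not tested. The higher DDX5 level with Chtop than with Nxf1 was called under every alternative. On DDX5, Alyref against the Control ranged from 1.28 to 2.11 and was called without Control 1 (2.07) and without replicate 1 of every group (2.11), and Chtop against the Control ranged from 1.56 to 2.50 and was not called with only the 2 groups in the fit (1.34, adjusted p = 0.0632 by edgeR). Alyref against Nxf1 ranged from 1.32 to 1.62 and was not called by DESeq2 (1.42, adjusted p = 0.0649). Nxf1 against the Control, near 0 and never called, ranged from -0.31 to 0.55 and was 0.23 with no filter, 0.077 with tags in more than 1 gene counted in each, and 0.036 with the replicate number as a block. In DDX5 exons, Alyref against Chtop ranged from -0.72 to 0.019 and was 0.019 with no filter and 0.072 with library totals, never called, and Alyref against Nxf1 ranged from 1.45 to 2.31 and was not called with exons of all isoforms merged (1.56). In DDX5 introns, Chtop against Nxf1 ranged from 0.64 to 2.34 and was called with RLE (1.73), DESeq2 (1.76) and without replicate 2 of any 1 group. With merged isoforms these introns could not be fitted, since the tags of all DDX5 introns then count as exonic. In DDX17, Alyref against Nxf1 ranged from 1.66 to 2.41 in exons (merged 1.24, library totals 1.95, neither called), from -0.24 to 0.84 in introns (merged -0.94) and from -0.35 to 0.59 in the 3′ UTR. The exon share of DDX5 with Nxf1 less that of the other factors was 11.3 points with merged isoforms in place of -7.65, and that with Chtop ranged from -9.26 to 0.0027 points.

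Counts of called genes moved more. For Chtop against Nxf1 the 837 genes became 254 with DESeq2 and 179 without Nxf1 3. For Alyref against Chtop, 510 became 72 with DESeq2 and 1331 with only the 2 groups. For Chtop against the Control, 474 became 226 with DESeq2, 184 with the 2 groups and 118 without Control 3. For Alyref against Nxf1, 154 became 23 with DESeq2, 98 with no filter, 239 with library totals and 3 without Nxf1 2. For Alyref against the Control, 4 became 13 with DESeq2 and 0 to 117 without a library, and for Nxf1 against the Control 1 became 0 to 3. For parts, 325 became 191 with DESeq2, 2896 with the 2 groups and 60 without Alyref 3, 319 became 123 with DESeq2, 497 with no filter and 11 without Nxf1 3, and 985 became 611 with DESeq2, 2223 with no filter and 428 without Nxf1 3. With RLE and with library totals, the called genes that were higher went from 62.3% to 45.3% and 84.5% for Alyref against Nxf1, where the median of all genes was 0.02, -0.09 and 0.30, and from 59.5% to 47.7% and 73.6% for Chtop against Nxf1. With RLE, 95.3% of the called parts were higher with Chtop than with Nxf1 in place of 65.4%, and the median of all parts there moved from -0.42 to 0.11.

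No call of DDX5 or DDX17 changed with the replicate number as a block, and 69 genes were called for Alyref against the Control in place of 4. Depth limits the Control most, with 4 to 5 DDX5 tags a library. The alternatives with library totals and without replicate 1 of every group were chosen after the data were seen.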
